A study of Mus musculus with 6 samples.

Results

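The mature miRNAs of the imprinted Dlk1-Dio3 cluster were followed in type H and type L endothelial cells (ECs) of mouse bone. Members were chosen by name: a miRNA of the array belonged to the cluster if its number was that of a miRNA known from this locus, whatever its letter and arm. This gave 90 mature miRNAs, carrying 42 different numbers, of 1881 on the array. Most cluster members stayed below the detection threshold in both cell types. Only 3 of the 90 were detected on any array, and miR-494-3p and miR-487b-3p, the pair detected on all 6 arrays, were lower in type H than in type L ECs.

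The Dlk1-Dio3 domain is a stretch of mouse chromosome 12 many of whose genes are expressed from 1 parental copy only. The paternal copy expresses protein-coding genes such as Dlk1, a Notch ligand relative, and Rtl1, whereas the maternal copy expresses a chain of noncoding RNAs, among them Meg3, an antisense RNA to Rtl1, Rian and Mirg. The miRNAs are processed from these maternal RNAs, and the cluster is known for its expression in the embryo, placenta, brain and muscle and in pluripotent stem cells. Several of its members have been studied in vessels, above all miR-329, miR-487b, miR-494 and miR-495, whose inhibition in mice was reported to improve blood flow recovery after limb ischaemia.

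The cells came from bone marrow of wild-type C57BL/6 mice aged 1 month. Type H ECs were sorted as CD31hiEmcnhi and type L ECs as CD31loEmcnlo, where Emcn is endomucin, with 3 arrays of each and no treatment in either group. The labels give the mice as male and the methods as female. The labels also describe a culture of the sorted cells on fibronectin in endothelial medium, and the replicates are called biological, without a statement on whether animals were pooled. RNA was hybridised to 1-colour Agilent miRNA arrays, and the question was which miRNAs differ between the capillary type coupled to bone formation and the other type.

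On each array 263 to 309 miRNAs were detected. Each cell type was hybridised on a slide of its own, and the effect of the slide and that of the cell type cannot be told apart. Log2 signals correlated at 0.998 to 0.999 between arrays of a cell type and at 0.928 to 0.943 between cell types, over 231 miRNAs detected on all 6 arrays. Both arms of miR-126a, the defining endothelial miRNA, were detected on no array, with a summed signal of 2.49 to 4.74 on type H and −0.10 to 0.67 on type L arrays. All 8 stromal marker miRNAs were detected, 7 of them on all 6 arrays, with a summed signal of 2997 to 3754 in type H and 2385 to 2759 in type L ECs, and 0 of the 4 haematopoietic markers on the array were detected, with a summed signal of 3.90 to 5.68 in type H and −0.43 to 0.54 in type L ECs. The stromal list held miR-143-3p, miR-145a-5p, miR-214-3p, miR-21a-5p and both arms of miR-199a and miR-140. Its brightest miRNA was miR-21a-5p, at a normalized log2 mean of 10.98 in both cell types. The next was miR-199a-3p, at 8.73 in type H and 8.70 in type L ECs. The stromal sum is thus mostly miR-21a-5p and does not measure an amount of stromal RNA. All these sums were taken before normalization and give most weight to the brightest miRNAs of a list, so no difference between cell types is read from them. The part of stromal RNA in the results for the cluster was not tested.

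The 3 detected members lie in different parts of the cluster, and their sequences are given because the results turn on them. In RefSeq on GRCm38.p6, Mir433 stands at chr12:109591715-109591838, inside the span of Rtl1, whose antisense RNA is its precursor. Mir494 at chr12:109715318-109715402 and Mir487b at chr12:109727333-109727414 belong to the distal block that runs from Mir379 to Mir410, outside the annotated span of Mirg, which starts at 109734981. The mature sequences follow 5′ to 3′ with the seed, bases 2 to 8, in capitals. The other arm of each hairpin is shown where RefSeq gave it.
miR-494-3p: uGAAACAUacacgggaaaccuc
miR-494-5p: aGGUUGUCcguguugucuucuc
miR-487b-5p: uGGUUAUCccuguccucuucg
miR-433-5p: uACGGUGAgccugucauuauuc
miR-433-3p: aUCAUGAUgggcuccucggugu
RefSeq held a mature sequence for 86 of the 90 members, and miR-487b-3p was among the 4 without one. The mature miR-494-3p occupies chr12:109715367-109715388 on the plus strand and miR-433-5p chr12:109591729-109591750, also on the plus strand. No other miRNA on the array with a RefSeq sequence shared the seed of miR-494-3p or of miR-433-5p.

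Each miRNA was read on the array by 1 to 4 probes of graded length, spread over 30 spots. The probes of the 3 detected members are shown because they define what was measured. They are printed 5′ to 3′, and the capitals mark the letters by which a longer probe exceeds the shortest probe of that miRNA.
miR-494-3p, shorter probe: gaggtttcccgtgt
miR-494-3p, longer probe: gaggtttcccgtgtA
miR-487b-3p, shorter probe: aagtggatgaccctgta
miR-487b-3p, longer probe: aagtggatgaccctgtaC
miR-433-5p, shortest probe: gaataatgacaggctcac
miR-433-5p, longest probe: gaataatgacaggctcacCGT
The probes pair with the 3′ end of the miRNA. For miR-494-3p they covered bases 9 to 22 and 8 to 22 of its 22 bases, so most of the seed lay outside the probe, and for miR-433-5p the longest probe covered bases 2 to 22. The array's own annotation, on mm9, listed the shorter probe of miR-487b-3p at chr12:110965598-110965613, an interval of 16 bases for a probe of 17.

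Most members chosen by name were also placed at the locus. In RefSeq, 89 of the 90 could be placed on chromosome 12 by their hairpin, the hairpins' starts spanning 158 kb. The remaining member was miR-496b, which RefSeq puts on chromosome 19. In the array's mm9 annotation, 67 members had a probe on chromosome 12, within chr12:110824551-110981994, 23 had no position, and 0 lay on another chromosome.

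Detection across the cluster was sparse. A miRNA counted as detected on an array when at least 1 of its probes had a total signal above 3 times its error, which is the scanner software's own flag. By this flag 3 of 90 members (3.33%) were detected on at least 1 array, against 345 of the 1791 miRNAs outside the cluster (19.3%). Among the 719 other miRNAs whose number was no higher than the highest of the cluster, 201 were detected (28.0%), and in another large cluster of mouse miRNAs, the miR-297, miR-466, miR-467 and miR-669 families, 30 of 61 (49.2%). Of these 61, 16 or 17 were detected on each type H array and 29 or 30 on each type L array. The cluster had 2 or 3 members detected on each array. The shares are descriptions, since miRNAs of a cluster share their precursors and are not independent. In the Meg3, Rtl1-antisense and Rian part 1 of 20 members was detected, and in the miR-379 to miR-410 block 2 of 70.

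**Figure D1:**
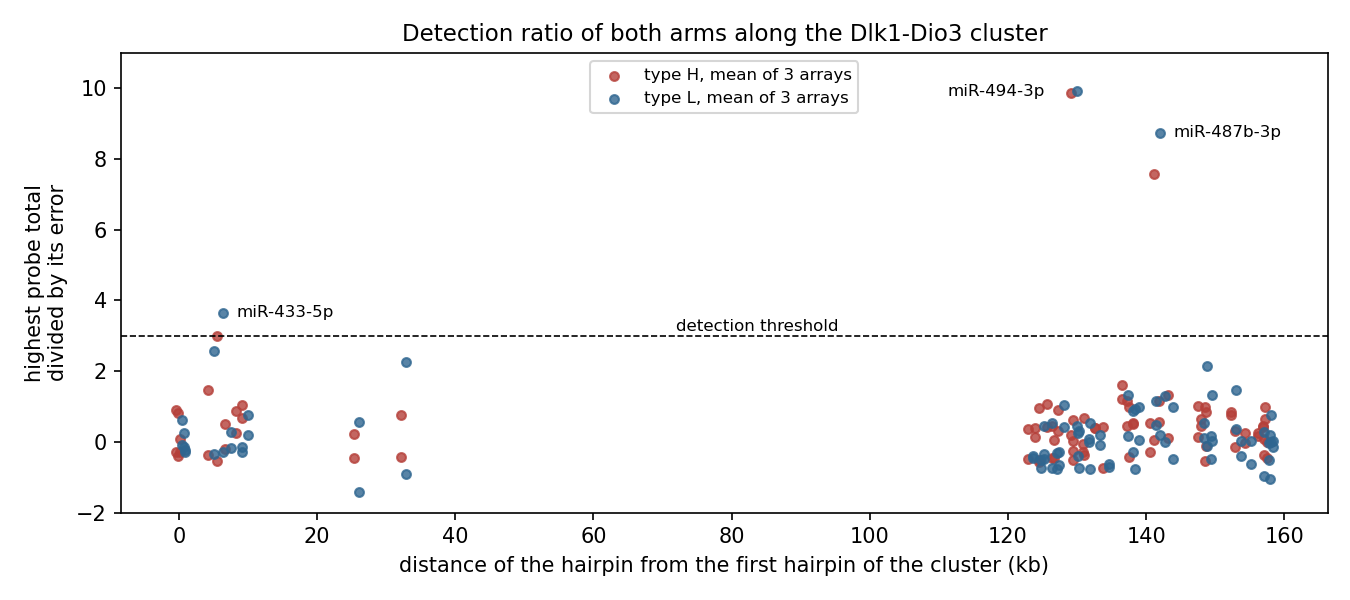
Highest probe total divided by its error (y axis, no unit) for the 89 placed members, against the distance of their hairpin from the first hairpin of the cluster in kb (x axis). Each point is the mean of 3 arrays of type H (red) or type L (blue, drawn slightly to the right), and the dashed line is the detection threshold of 3. miR-494-3p and miR-487b-3p stand far above the line in both cell types, miR-433-5p lies at it, and all other members lie below it.

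The hairpins next to a detected one gave no detected arm. Mir679 and Mir1193 begin 174 and 268 bases beyond Mir494, and the highest ratio of signal to error of their arms on any array was 0.44 and 0.84. Mir329, which lies 1740 bases before Mir494, reached 1.48. Around Mir487b, Mir381 and Mir539 lie 436 and 714 bases away and reached 1.26 and 1.35. The neighbours of Mir433 were Mir431, 1177 bases away, which reached 2.60, and Mir127, 1007 bases away, which reached 0.56. The signals of miR-494-3p and miR-487b-3p were not accompanied by a signal above the threshold from the arms encoded next to them.

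miR-494-3p, of the group studied in limb ischaemia, was detected on all 6 arrays and was lower in type H ECs. Its summed probe signal, in scanner intensity units, was 73.5, 63.7 and 56.4 on the type H arrays and 77.1, 96.5 and 96.8 on the type L arrays. Every type L array lay above every type H array, with the smallest gap between type H replicate 1 and type L replicate 1. The means were 64.6 ± 8.55 in type H and 90.1 ± 11.3 in type L (SD, n = 3). All 30 of its spots were well above background on every array.

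After quantile normalization and log2, miR-494-3p stood at 6.01, 6.03 and 5.95 in type H and at 6.42, 6.57 and 6.57 in type L ECs. The groups did not overlap on this scale either, and the spread within a group was smaller than the gap between them. The log2 difference, type H minus type L, was −0.52 (SE 0.052), which is 1.44-fold higher in type L, with an adjusted p of 0.00018 in limma. An exact two-sided permutation test of the 3 arrays against 3 gave p = 0.10, the smallest that this design allows. As in any sample of many cells, a lower level per cell and fewer cells with the miRNA cannot be told apart.

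miR-487b-3p, another member of the group studied in limb ischaemia, was also detected on all 6 arrays and changed in the same direction. Its total was 15.2, 13.8 and 11.9 on the type H arrays and 22.9, 24.8 and 27.0 on the type L arrays, with means of 13.6 ± 1.63 and 24.9 ± 2.06 (SD, n = 3). The groups were far apart, the lowest type L array lying above the highest type H array. On each type H array 26 of its 30 spots were well above background, and on each type L array all 30.

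On the normalized log2 scale miR-487b-3p had 3.87, 3.98 and 3.87 in type H and 4.38, 4.47 and 4.57 in type L ECs. The difference was −0.56 (SE 0.060), or 1.48-fold higher in type L, with an adjusted p of 0.00024 in limma and, again, p = 0.10 in the exact permutation test. Its size depended on the scaling more than that of miR-494-3p. It was −0.97 when arrays were scaled to their 75th percentile and −0.87 with no normalization. With normexp background correction it shrank to −0.23, and that of miR-494-3p to −0.26. Every one of these values remained past the threshold in limma.

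Each scaling also moves the centre of all miRNAs. Over the 231 miRNAs detected on all arrays, the median log2 difference was 0.11 after quantile normalization, −0.22 after 75th percentile scaling and −0.12 with no normalization. Measured from these medians, miR-494-3p lay at −0.63, −0.37 and −0.37, and miR-487b-3p at −0.67, −0.76 and −0.76. Both were below the median under each scaling. The 75th percentile scaling only divides each array by a constant, so its distances equal those with no normalization by construction. All 10 control features detected on every array had a higher signal with type H, the log2 difference being 0.21 to 1.47. Each cell type had a slide of its own, so this difference cannot be assigned to slide or cell type.

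The probes of miR-494-3p moved together, and so did those of miR-487b-3p. For miR-494-3p the mean signal in type L divided by that in type H was 1.40 with the shorter and 1.39 with the longer probe, before normalization. For miR-487b-3p the same ratio was 1.91 and 1.78. Each probe of both miRNAs was thus higher in type L. Whether the probes also read other RNAs was not tested.

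**Figure D2:**
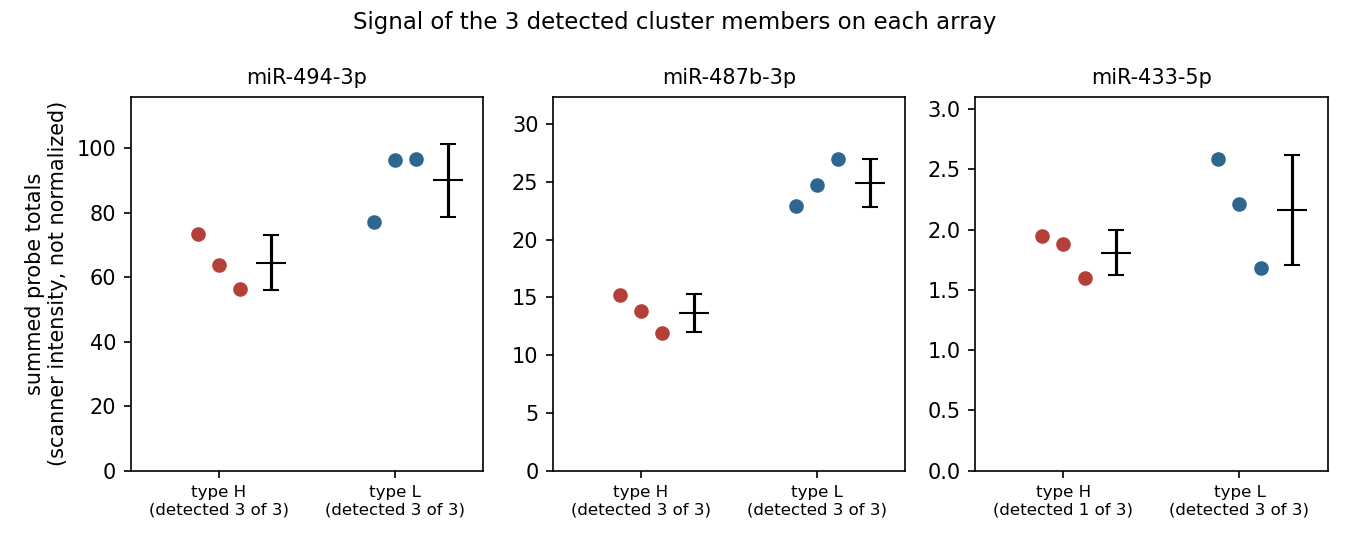
Summed probe signal of miR-494-3p, miR-487b-3p and miR-433-5p on each of the 6 arrays (y axis, scanner intensity before normalization, each panel on its own scale from 0), by cell type (x axis, with the number of arrays on which the miRNA was detected). Points are arrays, and bars show the mean and SD of 3 arrays. For the first pair all type L arrays lie above all type H arrays, whereas for miR-433-5p the cell types overlap.

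miR-433-5p, whose hairpin is antisense to Rtl1 and whose other arm has been studied in bone as an inhibitor of Runx2, stood at the detection threshold. It was detected on 1 type H array and on all 3 type L arrays. Its total was 1.94, 1.88 and 1.60 in type H and 2.59, 2.21 and 1.68 in type L ECs. The lowest type L array fell among the type H arrays, so the groups overlapped.

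The detection of miR-433-5p rested on its longest probe. The total of this probe divided by its error was 2.98, 3.13 and 2.88 on the type H arrays and 3.83, 3.69 and 3.43 on the type L arrays, on either side of the threshold of 3. No other probe of miR-433-5p exceeded a ratio of 1.67 on any array. At most 3 of its 30 spots were well above background on an array. The log2 difference, type H minus type L, was −0.04 (SE 0.15, adjusted p = 0.83 in limma), and the exact permutation p was 0.80. Its direction turned to 0.44 when only probes above 3 times their error were summed, so no direction is given.

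The total that the scanner software reported for miR-433-5p was not its own. On the 4 arrays where it was detected this total was 6.67 to 8.34, and within a relative tolerance of 1e-05 it equalled the signal of the longest probe, 1.11 to 1.52, plus the reported total of miR-425-5p, 5.15 to 7.23. On the other 2 arrays the reported total was 0.1. The deposited totals of miR-494-3p and miR-487b-3p equalled the sum of their own probes on every array. For this reason the sum of a miRNA's own probes was used for all members.

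Set against the whole array, the behaviour of the called members was common. Of the 311 miRNAs that could be tested, 270 (86.8%) passed an adjusted p of 0.05 in limma, 139 (44.7%) higher and 131 (42.1%) lower in type H. Of the 3 members tested, 2 were lower and 0 higher. Among miRNAs detected on all 6 arrays, 196 of 231 (84.8%) had groups that did not overlap, as miR-494-3p and miR-487b-3p did. The median log2 difference of the 131 miRNAs called lower was −0.76, larger in size than that of either member, and 96 of the 311 miRNAs tested had a more negative difference than miR-494-3p and 93 than miR-487b-3p. The median over all 311 was 0.03, and over the 3 members −0.52.

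**Figure D3:**
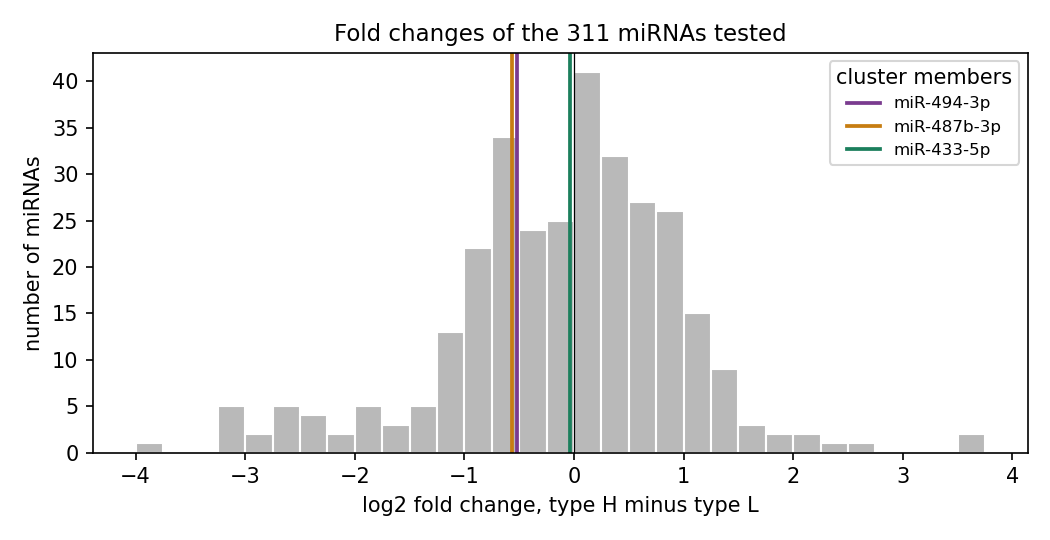
Log2 difference between type H and type L ECs (x axis, type H minus type L) for the 311 miRNAs tested, as a histogram (y axis, number of miRNAs). Coloured lines mark the 3 tested cluster members, of which miR-487b-3p at −0.56 and miR-494-3p at −0.52 lie in the flank of moderate decreases and miR-433-5p lies near 0.

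The opposite arms of the detected members stayed below the threshold on every array. miR-494-5p had totals of −0.17, 0.05 and −0.07 in type H and 0.67, 0.53 and 0.40 in type L ECs, a total below 0 meaning a signal under the subtracted background. miR-487b-5p had 0.12, 0.12 and −0.21 in type H and 0.28, −0.19 and 0.28 in type L. For miR-433-3p all 6 totals lay between −1.06 and −0.77. These values bound the signal and give no level.

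Among the 8 arms of miR-329, miR-487b, miR-494 and miR-495, the group studied in limb ischaemia, miR-494-3p and miR-487b-3p were the detected pair. The other 6 arms had ratios of signal to error from −0.20 to 1.48. Within the Rtl1-antisense miRNAs, miR-127, miR-136, miR-431, miR-433 and miR-434, which pair with the Rtl1 transcript and guide its cleavage, 1 of 10 arms was detected, and the others ranged from −0.72 to 2.60. The 6 arms of the miR-376 family were all below the threshold, with ratios from −0.88 to 2.20. Both arms of miR-134, known from dendritic spines of neurons, were below it as well, from −0.24 to 2.32. The remaining 64 arms ranged from −1.50 to 2.43, none of them detected.

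Across the 87 members detected on no array, signals lay close to the background. Their median total was 0.23, 0.12 and 0.11 on the type H arrays and −0.38, −0.37 and −0.41 on the type L arrays. The highest total of any of them was 1.85, 1.83 and 2.39 on the type H arrays and 3.57, 2.97 and 2.93 on the type L arrays. Of their 2610 spots, 14, 10 and 7 were well above background on the type H arrays and 4, 1 and 2 on the type L arrays. Only 4 of the 87 (4.60%) exceeded a ratio of 2 on any array, against 80 of the 1446 undetected miRNAs outside the cluster (5.53%).

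Among undetected members, signals were more often higher in type H than in type L, as they were among all undetected miRNAs. In 42 of the 87 members (48.3%) all type H totals lay above all type L totals, beside 42.5% of the 1533 miRNAs detected on no array. In 14 members (16.1%) all type L totals lay above all type H totals, beside 20.3% of those 1533. These signals are below the detection threshold, so the counts give no level of any miRNA.

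The 4 undetected members with a ratio above 2 on any array, named after their values were seen, did not share a direction. miR-431-3p, from the Rtl1-antisense group, had totals of 1.85, 1.34 and 1.55 in type H and 3.58, 2.97 and 2.93 in type L ECs, and its ratio of signal to error reached 2.60. miR-370-3p had 1.34, 0.34 and 0.21 in type H and 2.75, 2.72 and 2.76 in type L. miR-134-5p had 1.16, 0.56 and 0.11 in type H and 3.16, 2.39 and 2.54 in type L. For each of these every type L array exceeded every type H array. miR-376c-3p went the other way, with 1.36, 0.86 and 2.39 in type H and −0.27, −0.62 and −0.26 in type L, and its ratio reached 2.20 on 1 type H array. None of the 4 reached a ratio of 3 on any array, so their levels are not known and they were not tested.

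Shared seeds linked members that were not detected. The 86 sequences held 80 different seeds, and 6 seeds were each shared by a pair of members, 12 members in all, of which 0 were detected. The arms miR-376b-5p and miR-376c-5p are shown as an example of such a pair, with the seed in capitals.
miR-376b-5p: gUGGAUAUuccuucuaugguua
miR-376c-5p: gUGGAUAUuccuucuauguuua
The other pairs were miR-379-3p with miR-411-3p, miR-379-5p with miR-1193-5p, miR-370-5p with miR-1193-3p, miR-299a-3p with miR-299b-3p, and miR-494-5p with miR-410-5p. The last of these joins the undetected arm of Mir494 to an arm from the far end of the block.

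The array also held miRNAs of the region that the choice by name left out. Within the mm9 interval of the members lay 8 further miRNAs, both arms of miR-1188, miR-1197, miR-3070 and miR-3071. None was detected, and their highest ratio of signal to error was 1.81. Beyond the last member, at a distance of 4.12 kb, lay miR-3072-5p, named after its values were seen, which was detected on all 6 arrays. Its totals were 9.36, 7.81 and 7.70 in type H and 13.0, 13.8 and 15.1 in type L ECs, and the groups did not overlap. The log2 difference was −0.42 (SE 0.067, adjusted p = 0.0015 in limma), the same direction as that of miR-494-3p and miR-487b-3p. Such values were common: 42.1% of the 311 miRNAs tested were called lower in type H. On the normalized scale, 84.8% of the 231 miRNAs detected on all 6 arrays had groups that did not overlap.

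**Figure D4:**
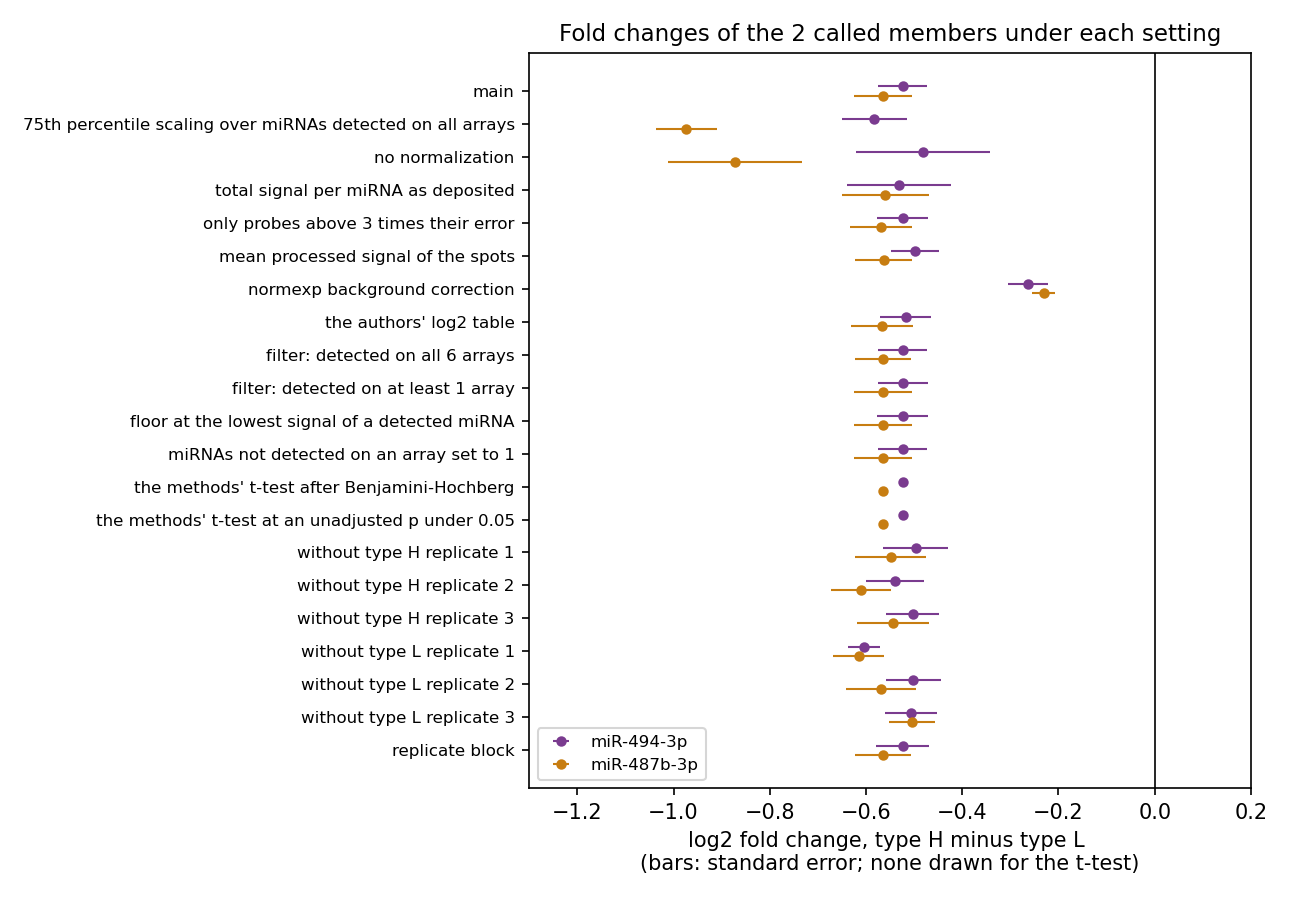
Log2 difference of miR-494-3p (purple) and miR-487b-3p (orange) between type H and type L ECs (x axis, type H minus type L) under the main processing and each of the 20 alternatives (y axis, 1 line per setting). Bars are standard errors, not drawn for the test that the methods name. All values lie below 0, closest to it with normexp background correction at −0.26 and −0.23.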

How the data were processed

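MiRNA was measured on 6 arrays, 3 each of type H and type L ECs. The deposited scanner files hold spot intensity values, background-subtracted by the authors with Agilent Feature Extraction 10.7.1.1 and not normalized between arrays. The authors also deposited a table of log2 values for 1902 features, quantile-normalized in GeneSpring according to the methods, which was used as an alternative. The methods and labels differ on the labelled material (small RNA or cRNA), and the file headers give another array design number than the methods.

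For each of the 1881 miRNAs the totals of its probes were summed, quantile-normalized, set to at least 1 and taken to log2. The 311 miRNAs with the detection flag on every array of type H, of type L or of both were fitted with limma 3.58.1 in R 4.3.3, with Benjamini-Hochberg adjustment over all of them and a threshold of 0.05. The fit was tested on simulated data. Tables were joined in Python 3.11.15 with pandas 2.3.3, and figures drawn with matplotlib 3.10.9. Members passing the filter were named with their values, others by counts, as a named member's other arm, or as stated beside them. The members, lists and tests were chosen with earlier results of these data known. The number of arrays limits the precision.

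Alternatives changed the normalization, signal, background correction, filter, floor, test and arrays included. The sample titles do not say whether same-numbered samples were paired, and the main fit used no pairing. Deviations of same-numbered arrays correlated at 0.02, −0.12 and 0.15 over 311 miRNAs, which cannot decide the question with so few arrays.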

Additional observations from a re-analysis of the deposited data

How the results depend on the processing

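Under all 20 alternatives 2 members passed the threshold in limma or the methods' t-test, and both stayed lower in type H. The log2 difference, type H minus type L, ranged from −0.58 (75th percentile scaling) to −0.26 (normexp) for miR-494-3p, with −0.60 to −0.50 when each array was left out in turn. For miR-487b-3p it ranged from −0.97 (75th percentile scaling) to −0.23 (normexp), and from −0.62 to −0.50 leaving out each array. Adjusted p values in limma and the methods' t-test lay between 0.00010 and 0.0085 for the former and between 1.3e-09 and 0.0036 for the latter. The 1.3e-09 came from limma with no normalization, where all 3 members had the same standard error, 0.14. That value does not measure the spread of miR-487b-3p itself. The methods' t-test called 266 miRNAs before and 264 after Benjamini-Hochberg adjustment.

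miR-433-5p passed the threshold under no alternative that gave a value (adjusted p 0.11 to 1.0 in limma and the methods' t-test), and detection on all 6 arrays as a filter left it without one. Its difference turned to 0.44 when only probes above 3 times their error were summed, and to 0.033 without type H replicate 1, 0.075 without type L replicate 1 and 0.0016 without type L replicate 2. Leaving out each array it ranged from −0.19 to 0.075, and with the deposited totals, which hold the signal of miR-425-5p, it was −0.92. The number of detected members was 3 under each of its 7 alternatives. The alternative of at least 1 probe above 3 times its error is the same as the flag. Leaving out an array could not change the number either. Of the members, 87 were detected on no array, and miR-494-3p and miR-487b-3p on all 6. miR-433-5p was detected on all 3 type L arrays, so it passed whichever array was left out. These 7 alternatives were therefore no test of the number.

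Over all miRNAs, 194 to 303 passed the threshold, and 261 to 272 leaving out each array, beside 270. The share of calls higher in type H, 51.5% with quantile normalization, was 35.8% after 75th percentile scaling and 40.3% with no normalization. With the replicate number as a block 262 miRNAs and 2 members passed, and the differences of the 3 members were unchanged at −0.52, −0.56 and −0.04 (adjusted p = 0.0019, 0.0018 and 0.84 in limma). Slide could not be fitted as a block, because each cell type lay on a slide of its own. Arms under 3 times their error have no level here, so a difference between cell types in the 87 undetected members was not detectable.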
